A study of Acipenser baerii with 14 samples.

Results

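The libraries compared here were 2 of ampullary organs (AOs) and 2 of general epithelium (EPs) from untreated larvae of the Siberian sturgeon, *Acipenser baerii*. They are 4 of the 14 libraries of the series, whose other libraries came from untreated neuromasts (NMs) and from AOs and NMs taken 12 and 24 h after neomycin. The untreated NMs, the mechanosensory organs of the same sensory system, are given beside AOs and EPs only to show where the 2 kinds of organ differ. AOs, NMs and EPs were all taken from larvae at stage 45, 10 days after hatching, that had received no neomycin. Both kinds of organ came from the underside of the head, whereas EPs came from that of the trunk. A vital dye, DASPEI, made the organs visible while the tissues were cut out. The organ and the region of the body therefore cannot be told apart in this comparison. For each group 15 larvae were pooled and the pool was split into 2 before RNA extraction, so the spread between the 2 libraries of a group is that of extraction, library and sequencing, and p-values measure that spread and not the spread between larvae.

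All 23448 genes of the deposited table entered the comparison, and 21978 of them had enough counts to be tested. A gene is here a gene of the de novo transcriptome assembly, and its name is that of the closest protein in another species. The roles given below are those known from other vertebrates, mainly mouse and zebrafish. Sturgeons have multiplied genomes, so several genes of the assembly can carry 1 name, and reads of near-identical copies may have been divided between them: of 12855 names tested, 4441 were carried by 2 or more genes.

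AOs are electroreceptive organs of the lateral line system, which sturgeons share with sharks, paddlefish and other non-teleost fishes. Receptor cells and supporting cells sit at the base of a canal filled with conductive gel that opens at the skin, and weak electric fields in the water open voltage-gated calcium channels of the receptor cells. Calcium then triggers the release of glutamate at ribbon synapses onto the afferent fibres of the lateral line nerve. AOs arise from the same placodes as NMs, which detect water movement with hair cells.

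The AO libraries held 9881687 and 9396423 expected counts and the EP libraries 8474525 and 8987403. Replicates correlated with r = 0.979 in AOs and 0.975 in EPs across genes on the log scale. They differed by more than sampling noise, with a chi-square per degree of freedom over genes of 7.62 and 9.42, and were counted as separate libraries. Levels are given as CPM, read counts scaled to the size of the library after TMM correction. The files give no gene lengths, so a CPM value is compared between libraries and never between genes. A gene was called when its log2 fold change (AO minus EP) exceeded 1 in size at an adjusted p under 0.01, in the edgeR quasi-likelihood test, p-values adjusted after Benjamini-Hochberg over all genes tested. By this rule 14.3% of the genes tested were called, 7.46% (1639) higher and 6.81% (1496) lower in AOs, and over all of them the log2 fold change had a median of 0.09. The counts were carried by 1325 names with at least 1 gene higher and 1079 names with at least 1 gene lower. Between NMs and EPs 4.06% of all genes were higher and 9.19% lower in NMs. Between AOs and NMs 5.2% were higher and 0.828% lower in AOs. Each count for a group of genes below is to be read beside the shares of its own comparison. For 70.7% of the genes tested both AO libraries lay on the same side of both EP libraries, so that such a separation alone does not single a gene out, and an exact permutation test of 2 against 2 libraries cannot give a two-sided p below 0.333. A quasi-likelihood fit of the 4 libraries alone called 955 genes higher and 1375 lower, which lowered the share of calls that were higher from 52.3% to 41.0%.

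**Figure D1:**
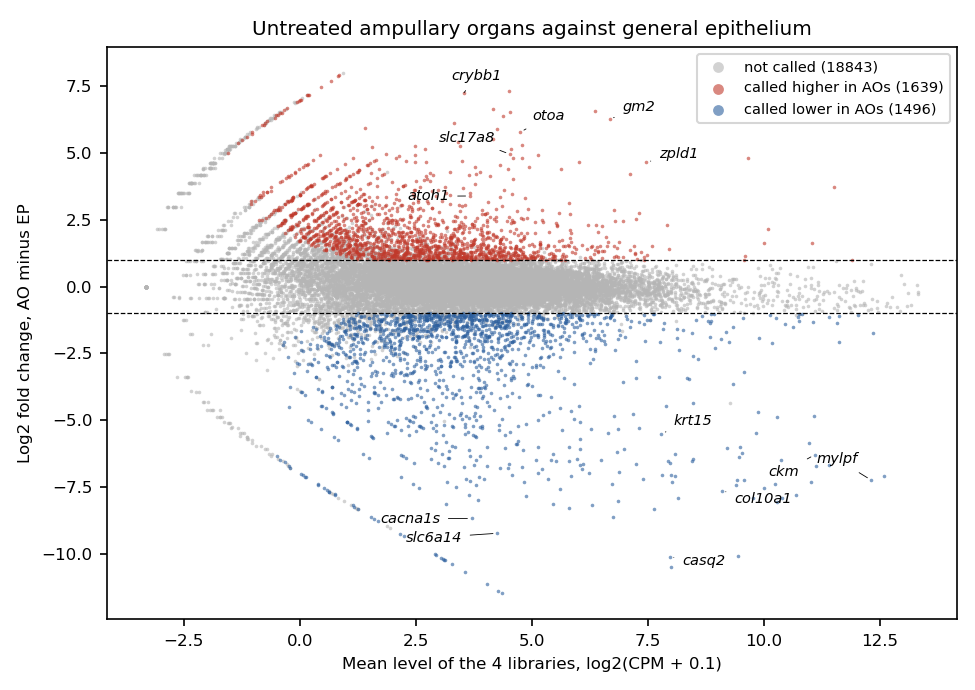
Log2 fold change between untreated AOs and EPs (y axis) against the mean level of the 4 libraries in log2(CPM + 0.1) (x axis), 1 point per gene tested. The 1639 genes called higher in AOs are red, the 1496 called lower are blue, the others are grey, and the genes written beside their points are described in the text. The labelled crystallins, *otoa* and *slc17a8* lie far above the dashed lines at 1 and -1, and the labelled muscle genes and *col10a1* far below.

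Marker lists of other tissues were unequal between the groups. Muscle markers summed to 59128 and 58225 CPM in EPs but to 1024 and 914 CPM in AOs. Markers of red blood cells summed to 4105 and 4358 CPM in AOs and 12340.3 and 13168 CPM in EPs, and ribosomal protein genes to 151219 and 147319 CPM in AOs and 247318 and 221140.0 CPM in EPs. In the other direction, lens markers summed to 684 and 685 CPM in AOs and 19.04 and 19.9 CPM in EPs. Neuron markers reached 1080.2 and 1046 CPM in AOs against 568 and 555 CPM in EPs, and brain markers 442 and 438 CPM against 193 and 194 CPM. In bulk tissue fewer cells of a type and less RNA per cell cannot be told apart, and the part of these tissues in the results below was not tested. An alternative chosen after seeing the data left out the muscle, blood and ribosome genes before scaling, and bears on the scaling only. With it 1606 genes were called higher and 1398 lower, and 2988 of these calls were shared with the main fit. The genes left out could not be called in it, and lens, neuron and brain genes were kept.

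**Figure D2:**
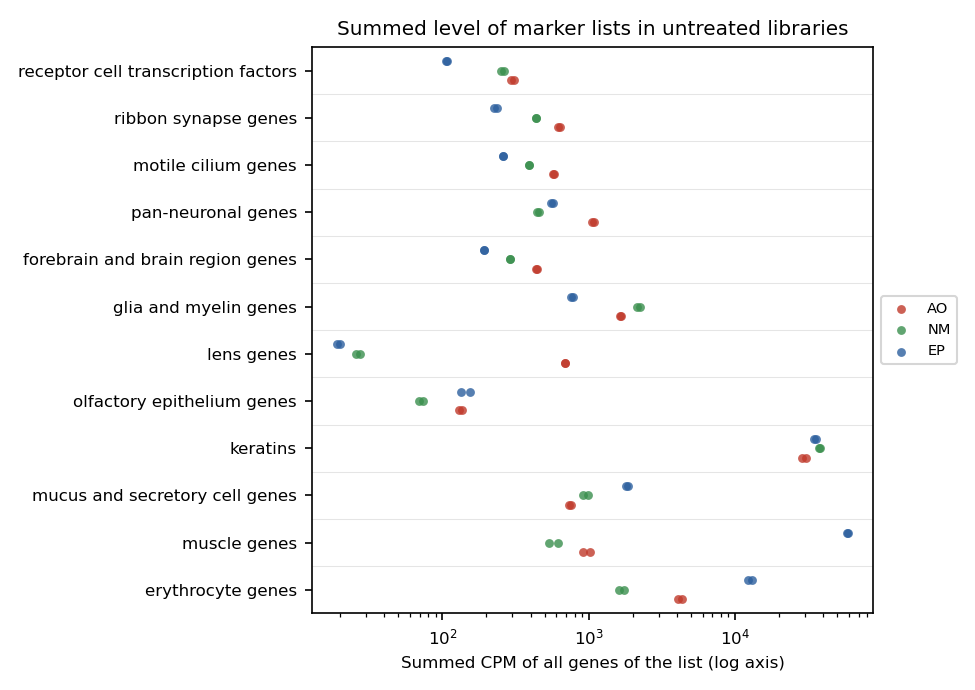
Summed level of 12 marker lists (CPM, log axis) in each untreated library, with 1 point per library for AOs (red), NMs (green) and EPs (blue). Muscle markers lie at 59128 and 58225 CPM in EPs and 1024 and 914 CPM in AOs, and lens markers at 684 and 685 CPM in AOs against 19.04 and 19.9 CPM in EPs, while the replicates of each group almost coincide.

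Transcription factors of mechanosensory and electrosensory receptor cells were higher in AOs. Of the 30 genes tested in this group 19 were called higher, beside the 7.46% of all genes, the other 11 did not pass the test, and the median log2 fold change was 1.54. *atoh1* (TRINITY_DN99639_c0_g1), the proneural factor that starts hair cell differentiation, was at 23.9 and 21.9 CPM in AOs and 2.80 and 1.63 CPM in EPs, a log2 fold change of 3.39 (SE 0.24). *pou4f3* (TRINITY_DN100538_c0_g1), a POU factor that hair cells need to survive, was at 10.9 and 9.98 CPM in AOs and 0.985 and 1.31 CPM in EPs, with a log2 fold change of 3.16 (SE 0.20). A second gene of this POU family, *brn3* (TRINITY_DN106769_c1_g2), was at 14.3 and 17.9 CPM in AOs and 1.14 and 1.69 CPM in EPs and had a log2 fold change of 3.49 (SE 0.22). All 3 were several-fold above EPs in both AO libraries, without overlap. The other *atoh1* genes, *atoh1* (TRINITY_DN80911_c0_g1) and *atoh1* (TRINITY_DN87586_c2_g1), rested on few counts. Their log2 fold changes of -1.12 (SE 0.61) and 1.01 (SE 0.59) did not pass the test. *insm2* (TRINITY_DN112093_c0_g1), a zinc-finger factor of neuroendocrine cells, showed 7.05 and 8.49 CPM in AOs and 0.529 and 1.04 CPM in EPs and a log2 fold change of 3.23 (SE 0.23). Chosen after their values were seen, *gfi1* (TRINITY_DN110021_c2_g1), which acts downstream of the POU factor in hair cells, had 9.79 and 8.46 CPM in AOs and 1.30 and 1.36 CPM in EPs and *lhx3* (TRINITY_DN107124_c0_g2), a LIM homeodomain factor of hair cells and motor neurons, had 5.57 and 6.14 CPM in AOs and 0.217 and 0.141 CPM in EPs. Log2 fold changes were 2.81 (SE 0.22) and 4.75 (SE 0.46), and neither gene overlapped between the groups. Adjusted p-values of the called genes named in this paragraph ran from 1.2e-06 to 2.3e-05 (edgeR quasi-likelihood test, Benjamini-Hochberg). In NMs the first *atoh1* gene was at 29.1 and 28.4 CPM and *pou4f3* at 9.36 and 8.21 CPM, near the AO levels. Their AO minus NM log2 fold changes of -0.33 and 0.25 did not pass the test. Of the 30 genes, 3 were higher and 0 lower in AOs than in NMs, beside 5.2% and 0.828% of all genes.

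Of 39 transcription factor genes of cranial placodes and of the ear 19 were higher in AOs and the other 20 did not pass the test, with a median log2 fold change of 0.96. Factors of the eyes absent and sine oculis families act together in sensory placodes. *eya2* (TRINITY_DN115004_c1_g1) was at 39.4 and 42.3 CPM in AOs and 8.31 and 7.10 CPM in EPs, a log2 fold change of 2.40 (SE 0.12), and both genes named *eya1* moved alike: *eya1* (TRINITY_DN116229_c3_g3) had a log2 fold change of 1.89 (SE 0.11) and *eya1* (TRINITY_DN116229_c3_g4) one of 1.74 (SE 0.087). *six1b* (TRINITY_DN108998_c3_g1) was at 175 and 184 CPM in AOs and 59.03 and 54.4 CPM in EPs, with a log2 fold change of 1.66 (SE 0.13). *gata3* (TRINITY_DN104451_c4_g1), needed for inner ear development, was at 32.2 and 32.8 CPM in AOs and 8.86 and 9.01 CPM in EPs and had a log2 fold change of 1.86 (SE 0.10). In each of these genes the lower AO library exceeded the higher EP library by 2-fold or more. *sox2* (TRINITY_DN85939_c0_g1), a factor of sensory progenitors and supporting cells, was at 151 and 166 CPM in AOs and 81.3 and 88.2 CPM in EPs, and its log2 fold change of 0.90 (SE 0.070) (adjusted p = 4.8e-06) fell short of the size required. The adjusted p-values of the genes called here were 1.8e-07 to 5.5e-06 in the edgeR quasi-likelihood test (Benjamini-Hochberg). Among genes chosen after their values were seen, *hmx1* (TRINITY_DN96415_c1_g1), *hmx2* (TRINITY_DN106915_c1_g3) and *hmx2* (TRINITY_DN97633_c1_g1), homeodomain factors of the ear and lateral line, had log2 fold changes of 4.21 (SE 0.28), 3.68 (SE 0.25) and 2.62 (SE 0.20). The last of these genes was at 18.8 and 15.7 CPM in AOs and 2.86 and 2.75 CPM in EPs and was higher still in NMs, at 49.7 and 39.5 CPM in NMs, an AO minus NM log2 fold change of -1.37 that passed the test (adjusted p = 1.6e-04, edgeR quasi-likelihood, Benjamini-Hochberg).

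Of 65 ribbon synapse genes tested 19 were higher in AOs and the other 46 did not pass the test, with a median log2 fold change of 0.97. *slc17a8* (TRINITY_DN109843_c0_g1), the vesicular transporter that loads glutamate into synaptic vesicles of hair cells, was at 44.8 and 44.1 CPM in AOs and 1.12 and 1.66 CPM in EPs, a log2 fold change of 4.95 (SE 0.30). *ctbp2* (TRINITY_DN106187_c1_g1), whose product RIBEYE builds the ribbon, was at 8.39 and 7.47 CPM in AOs and 0.312 and 0.270 CPM in EPs, with a log2 fold change of 4.80 (SE 0.27). Both were below 2 CPM in EPs, and the groups did not overlap. Otoferlin, the calcium sensor of exocytosis at ribbon synapses, was represented by 5 genes called higher. *otof* (TRINITY_DN119677_c4_g1) was at 137 and 113 CPM in AOs and 6.29 and 3.78 CPM in EPs. *otof* (TRINITY_DN117276_c1_g1) was at 59.1 and 57.9 CPM in AOs and 2.82 and 2.47 CPM in EPs. Their log2 fold changes were 4.65 (SE 0.19) and 4.46 (SE 0.13), and those of *otof* (TRINITY_DN100299_c1_g1), *otof* (TRINITY_DN112284_c0_g1) and *otof* (TRINITY_DN90750_c0_g1) were 4.17 (SE 0.25), 3.20 (SE 0.40) and 3.39 (SE 0.40). All 5 copies separated the groups, and the narrowest gap was that of the last, at 16.1 and 11.3 CPM in AOs and 1.86 and 0.737 CPM in EPs. The adjusted p-values of these genes were 6.0e-09 to 1.5e-04 (edgeR quasi-likelihood test, Benjamini-Hochberg).

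Further genes of the release machinery were among those called higher. *rims2* (TRINITY_DN103813_c1_g1), a scaffold of the active zone, was at 9.25 and 8.24 CPM in AOs and 1.44 and 0.878 CPM in EPs, a log2 fold change of 2.91 (SE 0.24), and 2 more genes of this name, *rims2* (TRINITY_DN114920_c1_g1) and *rims2* (TRINITY_DN104795_c0_g1), had log2 fold changes of 3.93 (SE 0.49) and 2.75 (SE 0.30). *rab3a* (TRINITY_DN106083_c1_g4), a small GTPase of synaptic vesicles, was at 20.02 and 22.5 CPM in AOs and 4.74 and 4.39 CPM in EPs, with a log2 fold change of 2.22 (SE 0.14). No AO library fell into the range of the EP libraries in any of these genes. The adjusted p-values of the *rims2* and *rab3a* genes were 1.3e-06 to 1.5e-04 (edgeR quasi-likelihood test, Benjamini-Hochberg). Of the 65 genes, 10 were also higher in AOs than in NMs, a comparison in which 6.02% of all genes were called, 5.2% higher and 0.828% lower. The active-zone gene *rims2* (TRINITY_DN103813_c1_g1) was among them, at 3.78 and 3.96 CPM in NMs and with an AO minus NM log2 fold change of 1.18 (adjusted p = 0.001737, edgeR quasi-likelihood, Benjamini-Hochberg), whereas *slc17a8* at 24.5 and 28.1 CPM in NMs, *ctbp2* at 7.79 and 9.56 CPM in NMs and the first *otof* gene at 71.1 and 61.9 CPM in NMs did not pass the test between the 2 kinds of organ.

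Hair cells carry a staircase of actin-filled stereocilia, the hair bundle, which ampullary receptor cells lack. The study describes sturgeon ampullary receptor cells with 1 kinocilium each, among supporting cells that bear many long stereocilia. Which cells of AOs held the transcripts below was not tested. Of 61 genes known from the hair bundle that were tested (76 in the table), 26 were called higher and 4 lower in AOs. Of all genes 7.46% were higher and 6.81% lower. The median log2 fold change of the 61 genes was 1.33. In the fit of the 4 libraries alone 16 of them were higher. *fscn2* (TRINITY_DN115875_c0_g1), an actin bundler of stereocilia, was at 10.3 and 10.4 CPM in AOs and 1.08 and 1.03 CPM in EPs, a log2 fold change of 3.24 (SE 0.13). *tmc2a* (TRINITY_DN116020_c2_g2), of the family of mechanotransduction channel subunits, was at 9.23 and 8.32 CPM in AOs and 1.66 and 1.23 CPM in EPs, with a log2 fold change of 2.61 (SE 0.23). *grxcr2* (TRINITY_DN89026_c0_g1), which shapes stereocilia, was at 6.58 and 7.97 CPM in AOs and 0.553 and 0.422 CPM in EPs, and its log2 fold change was 3.89 (SE 0.34). AOs lay above EPs in both libraries for each. *espnl* (TRINITY_DN112038_c0_g3), of the espin family of actin bundlers, was at 6.78 and 7.50 CPM in AOs and 0.864 and 0.749 CPM in EPs with a log2 fold change of 3.11 (SE 0.21). *cdh23* (TRINITY_DN74883_c0_g1), a tip-link cadherin, was at 1.64 and 1.83 CPM in AOs and 0 and 0.305 CPM in EPs, a log2 fold change of 3.52 (SE 0.55) that rests on few counts. The genes that were lower included *xirp2* (TRINITY_DN108676_c1_g1), an actin-binding protein that striated muscle also makes, at 9.41 and 8.70 CPM in AOs and 39.2 and 37.3 CPM in EPs and a log2 fold change of -2.08 (SE 0.11). It lay below EPs, in the direction of the muscle markers. Adjusted p-values were 5.3e-08 to 6.0e-04 (edgeR quasi-likelihood test, Benjamini-Hochberg). Against NMs only 2 of these genes were called, both higher in AOs, and the 4 bundle genes named first were not among them: *grxcr2* was at 7.67 and 7.94 CPM in NMs and *fscn2* at 9.09 and 9.47 CPM in NMs.

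**Figure D3:**
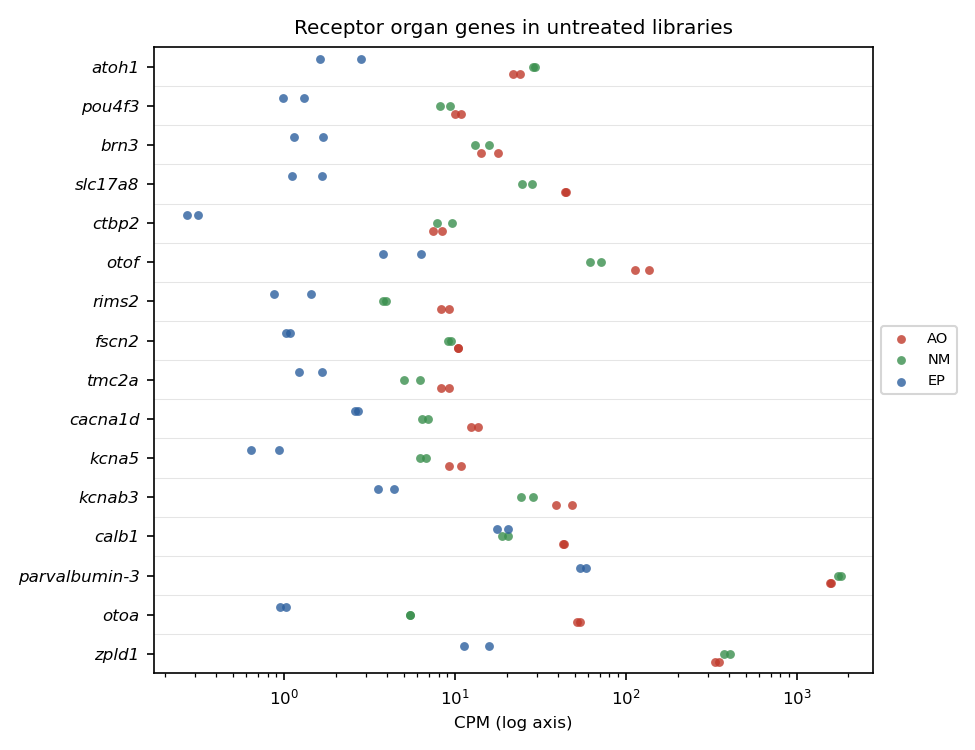
Level of 16 genes of receptor cell transcription factors, ribbon synapse, hair bundle, ion channels, calcium handling and gel in each untreated library (CPM, log axis), with 1 point per library for AOs (red), NMs (green) and EPs (blue). The genes shown were chosen among those called higher in AOs, and for each both AO libraries lie to the right of both EP libraries. Such a separation, in either direction, held for 70.7% of all genes tested. The place of NMs differs by gene: near AOs for *atoh1*, *pou4f3* and *zpld1*, between AOs and EPs for *slc17a8*, *rims2* and *otoa*, and beside EPs for *calb1*.

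Voltage-gated calcium channels moved in both directions. Of 63 genes tested, 11 were higher and 7 lower in AOs, against 7.46% and 6.81% of all genes, and the median log2 fold change was 0.68. The count of higher genes was not firm: it was 6 in the fit of the 4 libraries alone, 7 without EP replicate 1 and 7 without EP replicate 2. The higher genes included 5 of *cacna1d*, whose product is the CaV1.3 channel of hair cell ribbon synapses and which the study itself singled out from these samples. *cacna1d* (TRINITY_DN117567_c2_g1) was at 13.6 and 12.5 CPM in AOs and 2.70 and 2.61 CPM in EPs, a log2 fold change of 2.29 (SE 0.13). The other called copies, *cacna1d* (TRINITY_DN112955_c2_g1), *cacna1d* (TRINITY_DN112955_c2_g3), *cacna1d* (TRINITY_DN118519_c3_g1) and *cacna1d* (TRINITY_DN95551_c3_g1), had log2 fold changes of 2.51 (SE 0.23), 2.61 (SE 0.20), 2.35 (SE 0.20) and 2.43 (SE 0.28). These 5 lay within a narrow range of fold changes, and in each the AO libraries were at least 4 times the EP libraries. *cacna1e* (TRINITY_DN119335_c1_g1), the CaV2.3 channel gene, was at 3.89 and 3.65 CPM in AOs and 0.673 and 0.948 CPM in EPs, with a log2 fold change of 2.20 (SE 0.25).

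The lower calcium channel genes included those of muscle. *cacna1s* (TRINITY_DN119328_c2_g1), the CaV1.1 channel of skeletal muscle, was at 0 and 0.0748 CPM in AOs and 23.3 and 28.2 CPM in EPs, a log2 fold change of -8.68 (SE 0.45). *cacna1c* (TRINITY_DN112955_c2_g2), the cardiac and smooth muscle CaV1.2 channel, was at 1.39 and 1.61 CPM in AOs and 32.6 and 29.1 CPM in EPs, with a log2 fold change of -4.34 (SE 0.24), although it belongs to the same assembly component as 2 of the higher *cacna1d* genes. *cacna2d1* (TRINITY_DN117271_c2_g1), an accessory subunit, was at 8.15 and 7.999 CPM in AOs and 37.2 and 37.2 CPM in EPs and had a log2 fold change of -2.20 (SE 0.13). All 3 were far below EPs in AOs, as were the muscle markers, and the part of muscle in these values was not tested. Adjusted p-values of these 3 genes were 2.7e-07 to 5.9e-07 in the edgeR quasi-likelihood test (Benjamini-Hochberg). Set against NMs, 19 of the 63 calcium channel genes were higher in AOs, at a median log2 fold change of 1.42, beside 5.2% of all genes higher in that comparison. The first *cacna1d* gene was at 6.36 and 6.94 CPM in NMs, and its AO minus NM log2 fold change of 0.97 did not pass, whereas *cacna1e* at 1.01 and 0.773 CPM in NMs did, with 2.12 (adjusted p = 2.4e-04, edgeR quasi-likelihood, Benjamini-Hochberg).

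Of 18 genes of calcium-binding proteins and calcium pumps tested 7 were higher and 1 lower in AOs, beside 7.46% and 6.81% of all genes. The other 10 did not pass the test, and the median log2 fold change was 0.77. *calb1* (TRINITY_DN106660_c3_g1), calbindin, was at 43.2 and 42.9 CPM in AOs and 20.3 and 17.6 CPM in EPs, a log2 fold change of 1.19 (SE 0.12). *s100b* (TRINITY_DN97223_c1_g1), a calcium-binding protein of glia, was at 17.4 and 17.3 CPM in AOs and 3.89 and 3.76 CPM in EPs, with a log2 fold change of 2.19 (SE 0.10). *atp2b2* (TRINITY_DN119985_c4_g2), the calcium pump of hair bundles, was at 9.34 and 8.97 CPM in AOs and 2.87 and 2.96 CPM in EPs and had a log2 fold change of 1.65 (SE 0.13). NM libraries held these genes nearer to EPs: *calb1* was at 20.3 and 18.8 CPM in NMs, *s100b* at 7.21 and 7.81 CPM in NMs and *atp2b2* at 4.09 and 4.12 CPM in NMs, and their AO minus NM log2 fold changes of 1.14, 1.21 and 1.15 passed the test. The 1 lower gene, *pvalb* (TRINITY_DN92601_c1_g3), is the parvalbumin best known from fast muscle, and was at 17.9 and 15.5 CPM in AOs and 1742 and 1035 CPM in EPs, a log2 fold change of -6.38 (SE 0.48). Adjusted p-values between AOs and EPs ran from 1.6e-10 to 3.3e-05 (edgeR quasi-likelihood test, Benjamini-Hochberg). A second parvalbumin without a gene symbol, parvalbumin-3 (TRINITY_DN97159_c2_g2), was chosen after its values were seen and went the other way, at 1554 and 1578 CPM in AOs, 53.5 and 58.2 CPM in EPs and 1748 and 1801 CPM in NMs, with a log2 fold change of 4.81 (SE 0.081) between AOs and EPs.

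Of 115 potassium channel genes tested 12 were higher and 11 lower in AOs, which is 10.4% and 9.57% beside 7.46% and 6.81% of all genes, and the median log2 fold change was 0.69. The counts were not firm: 4 were higher in the fit of the 4 libraries alone, 5 with DESeq2, and 5, 7 and 5 without AO replicate 1, AO replicate 2 and EP replicate 2, while 7 were lower without AO replicate 1 and 7 in the 4 libraries alone. Of the potassium channel genes that the study singled out, *kcna5* (TRINITY_DN119466_c5_g1), the KV1.5 channel, was at 10.9 and 9.21 CPM in AOs and 0.937 and 0.643 CPM in EPs, a log2 fold change of 3.60 (SE 0.24). The genes of the beta-3 subunit, *kcnab3* (TRINITY_DN113107_c0_g3) and *kcnab3* (TRINITY_DN113107_c0_g1), were at 48.6 and 38.7 CPM in AOs and 4.41 and 3.52 CPM in EPs and at 25.1 and 30.8 CPM in AOs and 0.733 and 2.12 CPM in EPs. Both subunit genes were higher, with log2 fold changes of 3.46 (SE 0.18) and 4.28 (SE 0.31). In all 3 the libraries of the groups were far apart. NMs held intermediate levels of *kcna5* (6.24 and 6.74 CPM in NMs) and of the first beta subunit gene (24.4 and 28.7 CPM in NMs), and their AO minus NM log2 fold changes of 0.63 and 0.71 did not pass the test. *kcnma1* (TRINITY_DN116202_c0_g1), the large-conductance calcium-activated channel of many hair cells, was lower in AOs than in EPs, at 2.31 and 2.35 CPM in AOs and 7.97 and 7.56 CPM in EPs and a log2 fold change of -1.72 (SE 0.18). It was also lower in AOs than in NMs, which held 5.52 and 6.27 CPM in NMs, by an AO minus NM log2 fold change of -1.32 (adjusted p = 7.0e-04, edgeR quasi-likelihood, Benjamini-Hochberg). An inward rectifier differed by copy: *kcnj11* (TRINITY_DN108900_c2_g1) was at 5.05 and 4.72 CPM in AOs and 1.49 and 1.23 CPM in EPs, a log2 fold change of 1.83 (SE 0.23), and *kcnj11* (TRINITY_DN107879_c1_g1), of the same name, at 0.385 and 0.403 CPM in AOs and 45.7 and 42.9 CPM in EPs, one of -6.77 (SE 0.20). Adjusted p-values between AOs and EPs were 5.5e-09 to 1.5e-04 in the edgeR quasi-likelihood test (Benjamini-Hochberg).

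Among other ion channels, 20 of 81 genes tested were higher and 11 lower, and the median log2 fold change was 0.52. Leaving out any 1 of the 4 libraries reduced the higher genes to 10, DESeq2 gave 10 and the 4 libraries alone 8, and 7 were lower without AO replicate 2 and 7 without EP replicate 2. The polycystin channel *pkd2l1* (TRINITY_DN119531_c2_g1), which marks cells in contact with cerebrospinal fluid and sour taste cells, was at 20.2 and 19.6 CPM in AOs and 2.37 and 2.49 CPM in EPs, a log2 fold change of 3.02 (SE 0.19). Further genes of this name, *pkd2l1* (TRINITY_DN119531_c2_g3), *pkd2l1* (TRINITY_DN119531_c2_g4) and *pkd2l1* (TRINITY_DN78063_c0_g1), had log2 fold changes of 2.21 (SE 0.32), 2.16 (SE 0.23) and 2.39 (SE 0.35). The related *pkd1l2* (TRINITY_DN116782_c1_g2) was at 14.8 and 15.3 CPM in AOs and 4.03 and 3.94 CPM in EPs, with a log2 fold change of 1.93 (SE 0.11), and the acid-sensing channel *asic2* (TRINITY_DN113454_c0_g1) at 2.47 and 2.38 CPM in AOs and 0.239 and 0.375 CPM in EPs, with one of 2.79 (SE 0.34). The 5 polycystin genes named here were chosen among those called higher. The lower genes included *scn4b* (TRINITY_DN95917_c4_g3), a sodium channel subunit, at 1.11 and 0.966 CPM in AOs and 15.7 and 13.96 CPM in EPs, and *p2rx5* (TRINITY_DN114179_c1_g4), an ATP-gated channel, at 0.508 and 0.769 CPM in AOs and 16.3 and 13.1 CPM in EPs. These had log2 fold changes of -3.77 (SE 0.28) and -4.50 (SE 0.37). Adjusted p-values ran from 4.2e-07 to 4.4e-04 (edgeR quasi-likelihood test, Benjamini-Hochberg).

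Genes of the motile axoneme, the microtubule core of beating cilia, were higher in AOs in large number. Of 112 genes tested (130 in the table), 68 were higher in AOs, the other 44 did not pass the test, and the median log2 fold change was 2.08. *tekt2* (TRINITY_DN92403_c4_g2), a filament protein of microtubule doublets, was at 8.87 and 7.95 CPM in AOs and 0.252 and 0.246 CPM in EPs, a log2 fold change of 4.88 (SE 0.28). *rsph1* (TRINITY_DN78330_c0_g1), a radial spoke protein, was at 10.95 and 10.1 CPM in AOs and 0.360 and 0.340 CPM in EPs, with a log2 fold change of 4.64 (SE 0.17). *cfap77* (TRINITY_DN95830_c4_g2), a protein inside the doublets, was at 10.7 and 10.9 CPM in AOs and 0 and 0.585 CPM in EPs and had a log2 fold change of 5.24 (SE 0.46). EP libraries held less than 1 CPM of each. *ccdc40* (TRINITY_DN109824_c2_g2), which sets the spacing of dynein arms, was at 4.83 and 5.12 CPM in AOs and 0.612 and 0.596 CPM in EPs with a log2 fold change of 2.996 (SE 0.19). The transcription factor of motile ciliogenesis was carried by *foxj1-b* (TRINITY_DN105303_c1_g1), at 4.35 and 4.89 CPM in AOs and 0.239 and 0.491 CPM in EPs, and *foxj1b* (TRINITY_DN106495_c0_g2), at 6.65 and 6.31 CPM in AOs and 2.13 and 1.12 CPM in EPs. The log2 fold change was 3.46 (SE 0.27) for the first and 1.98 (SE 0.21) for the second. The AO libraries exceeded the EP libraries in both. Adjusted p-values were 2.0e-08 to 4.5e-05 (edgeR quasi-likelihood test, Benjamini-Hochberg).

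NMs did not share the whole of this difference. Between NMs and EPs 20 axonemal genes were higher and 3 lower, in a comparison that called 13.2% of all genes, 4.06% higher and 9.19% lower, with a median log2 fold change of 0.93, and between AOs and NMs 38 were higher in AOs, beside 5.2% of all genes, with a median of 1.23. *foxj1-b* was at 0.760 and 0.574 CPM in NMs, an AO minus NM log2 fold change of 2.88 (adjusted p = 4.0e-05), and *rsph1* at 3.20 and 3.52 CPM in NMs, one of 1.63 (adjusted p = 9.1e-06; both edgeR quasi-likelihood, Benjamini-Hochberg). The 3 contrasts share libraries, so each is given by its own values only. Brain and olfactory epithelium also hold motile cilia, and their markers moved with AOs against NMs as described below. The part of these tissues in the ciliary genes was not tested. Genes of intraflagellar transport, which every cilium needs, moved less: 12 of 50 were higher, with a median log2 fold change of 0.61, but 5 without AO replicate 1, 7 without EP replicate 2, 4 with DESeq2 and 1 in the 4 libraries alone. *ift27* (TRINITY_DN107515_c6_g1) was at 20.5 and 20.6 CPM in AOs and 5.91 and 6.33 CPM in EPs, a log2 fold change of 1.73 (SE 0.22) (adjusted p = 1.5e-04, edgeR quasi-likelihood, Benjamini-Hochberg).

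Genes of gelatinous extracellular matrices included the largest increase outside the lens among named genes with a mean of at least 5 CPM. In the ear such proteins form the membranes that cover hair cells. Of 22 genes tested (36 in the table), 9 were higher and 2 lower, beside 7.46% and 6.81% of all genes, with a median log2 fold change of 1.16. *otoa* (TRINITY_DN117123_c2_g1), otoancorin, which anchors such a membrane to the epithelium, was at 53.5 and 51.9 CPM in AOs, 1.02 and 0.948 CPM in EPs and 5.43 and 5.43 CPM in NMs. Its log2 fold change between AOs and EPs was 5.77 (SE 0.13), and it was higher in AOs than in NMs by 3.26, so that AOs were highest, NMs intermediate and EPs lowest without any overlap. The 2 lower genes also carried this name: *otoa* (TRINITY_DN116058_c1_g1) was at 144 and 137 CPM in AOs and 439 and 401 CPM in EPs and *otoa* (TRINITY_DN116058_c2_g1) at 113 and 101 CPM in AOs and 261 and 244 CPM in EPs, log2 fold changes of -1.58 (SE 0.087) and -1.24 (SE 0.076). *zpld1* (TRINITY_DN97032_c0_g1), a zona pellucida-domain protein of the cupula, was at 351 and 331 CPM in AOs, 15.8 and 11.3 CPM in EPs and 405 and 376 CPM in NMs, with a log2 fold change of 4.65 (SE 0.17) between AOs and EPs. *coch* (TRINITY_DN112353_c1_g2), cochlin, was at 64.6 and 65.3 CPM in AOs, 9.62 and 8.09 CPM in EPs and 95.6 and 91.4 CPM in NMs, and had a log2 fold change of 2.87 (SE 0.12). In *zpld1* and *coch* the NM libraries lay at or above the AO libraries. *otog* (TRINITY_DN118804_c2_g1) and *otog* (TRINITY_DN117661_c4_g1), otogelin genes, were at 12.3 and 13.99 CPM in AOs and 1.09 and 1.08 CPM in EPs and at 7.42 and 8.59 CPM in AOs and 1.06 and 0.913 CPM in EPs, with log2 fold changes of 3.58 (SE 0.20) and 3.05 (SE 0.22). The adjusted p-values between AOs and EPs were 8.3e-10 to 3.1e-04 in the edgeR quasi-likelihood test (Benjamini-Hochberg). Otolin, a protein of otoliths chosen after its values were seen (*otol1* (TRINITY_DN100808_c1_g1)), was at 1.93 and 2.18 CPM in AOs, 0.120 and 0.234 CPM in EPs and 8.31 and 6.68 CPM in NMs, so that NMs were highest, and its AO minus NM log2 fold change of -1.86 passed the same test.

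The vacuolar proton pump acidifies vesicles and, in ionocytes of fish skin, secretes acid. Of its 34 genes tested 14 were higher and the other 20 did not pass the test, with a median log2 fold change of 0.66. *atp6v1c1a* (TRINITY_DN110940_c0_g2) was at 53.7 and 54.2 CPM in AOs and 13.5 and 13.2 CPM in EPs, a log2 fold change of 2.02 (SE 0.11), and *atp6v1b2* (TRINITY_DN91522_c0_g1) at 65.9 and 66.9 CPM in AOs and 18.2 and 14.6 CPM in EPs, one of 2.02 (SE 0.14). *atp6v0a4* (TRINITY_DN109366_c5_g1), a subunit of the acid-secreting form, was at 23.8 and 24.4 CPM in AOs and 4.90 and 6.20 CPM in EPs, with a log2 fold change of 2.10 (SE 0.14). Each was 3 to 5 times the EP level in both AO libraries. Of 28 ionocyte genes 8 were higher and 3 lower, beside 7.46% and 6.81% of all genes, and 17 were not called, with a median log2 fold change of 0.34. *foxi1e* (TRINITY_DN103268_c0_g1), of the family of ionocyte master regulators, was at 51.00 and 59.2 CPM in AOs and 17.4 and 17.3 CPM in EPs, a log2 fold change of 1.67 (SE 0.10). Of the same family, *foxi1c* (TRINITY_DN114469_c4_g1) and *foxi1c* (TRINITY_DN90898_c5_g7) had log2 fold changes of -0.44 (SE 0.17) and 0.54 (SE 0.12) and were not called. *rhcg1* (TRINITY_DN117100_c3_g4), an ammonia channel, was at 81.4 and 86.3 CPM in AOs and 12.8 and 12.03 CPM in EPs, with a log2 fold change of 2.75 (SE 0.080), and *slc26a4* (TRINITY_DN117768_c6_g2), the anion exchanger pendrin, at 50.4 and 51.3 CPM in AOs and 9.32 and 7.95 CPM in EPs, with one of 2.56 (SE 0.093). Both AO libraries were above EPs for the ammonia channel and pendrin, and NMs lay beside AOs: *rhcg1* was at 63.5 and 65.3 CPM in NMs and *slc26a4* at 40.2 and 41.04 CPM in NMs. The epithelial calcium channel *trpv6* (TRINITY_DN86035_c0_g1) had no count in either AO library and 3.47 and 2.86 CPM in EPs, at least 21.6-fold lower in AOs against a floor of 3 counts over both libraries. The anion exchanger *slc4a1* (TRINITY_DN110372_c1_g1), which red blood cells also hold, was lower, at 16.1 and 15.7 CPM in AOs and 48.8 and 50.97 CPM in EPs, a log2 fold change of -1.65 (SE 0.12). Adjusted p-values ran from 4.6e-09 to 1.1e-04 (edgeR quasi-likelihood test, Benjamini-Hochberg).

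Genes of secreted signals and their targets were counted by pathway. Wnt pathway genes were higher in 19 of 47 cases and lower in 2, beside 7.46% and 6.81% of all genes, with a median log2 fold change of 0.93. *wnt4* (TRINITY_DN118094_c1_g1), a Wnt ligand, was at 33.8 and 39.2 CPM in AOs and 4.62 and 4.24 CPM in EPs, a log2 fold change of 3.02 (SE 0.13). A second ligand, *wnt9b* (TRINITY_DN107966_c7_g1), was at 26.9 and 27.96 CPM in AOs and 5.04 and 5.14 CPM in EPs, with a log2 fold change of 2.43 (SE 0.10). Of the modulators, *sfrp5* (TRINITY_DN116414_c2_g1), a secreted inhibitor, was at 39.2 and 41.8 CPM in AOs and 7.05 and 7.24 CPM in EPs and had a log2 fold change of 2.49 (SE 0.10), and *lgr6* (TRINITY_DN118847_c6_g1), an R-spondin receptor, was at 27.3 and 25.2 CPM in AOs and 7.17 and 5.88 CPM in EPs, a log2 fold change of 2.01 (SE 0.13). These 4 genes lay above EPs in both AO libraries. The inhibitor *sfrp4* (TRINITY_DN96103_c0_g1) went the other way, at 1.09 and 1.88 CPM in AOs and 12.3 and 14.2 CPM in EPs and a log2 fold change of -3.17 (SE 0.30). In the Notch pathway, which sorts receptor cells from supporting cells, 7 of 35 genes were higher and 1 lower, beside the same shares. The target genes *hey2* (TRINITY_DN113804_c1_g1) and *hey1* (TRINITY_DN108773_c0_g3) were at 43.2 and 44.8 CPM in AOs and 13.1 and 11.9 CPM in EPs and at 9.03 and 10.3 CPM in AOs and 2.25 and 3.49 CPM in EPs, log2 fold changes of 1.81 (SE 0.11) and 1.73 (SE 0.19). The Notch antagonist *numb* (TRINITY_DN119806_c5_g1) was at 3.85 and 4.15 CPM in AOs and 86.2 and 99.4 CPM in EPs, and its log2 fold change was -4.53 (SE 0.13). Adjusted p-values were 3.8e-09 to 6.4e-05 (edgeR quasi-likelihood test, Benjamini-Hochberg). NMs again lay near AOs, with *wnt4* at 25.2 and 30.1 CPM in NMs, *sfrp5* at 40.6 and 39.5 CPM in NMs and *hey2* at 36.5 and 38.8 CPM in NMs.

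The FGF, BMP and Hedgehog genes were divided, 11 higher and 13 lower of 90 tested, beside 7.46% and 6.81% of all genes, at a median log2 fold change of -0.16. The higher genes numbered 7 without AO replicate 2, 5 without EP replicate 2, 7 with DESeq2 and 6 in the 4 libraries alone. Among those called higher were genes of 2 BMP ligands: *bmp5* (TRINITY_DN114397_c1_g3) was at 30.9 and 31.7 CPM in AOs and 10.2 and 10.5 CPM in EPs, a log2 fold change of 1.59 (SE 0.10), and *bmp4* (TRINITY_DN100474_c0_g1) at 39.7 and 38.5 CPM in AOs and 16.2 and 17.3 CPM in EPs, one of 1.22 (SE 0.071). The Hedgehog ligand *shha* (TRINITY_DN114448_c1_g1) was lower, at 8.34 and 7.69 CPM in AOs and 39.02 and 34.4 CPM in EPs, a log2 fold change of -2.19 (SE 0.11). Its receptor and target was lower in 3 genes: *ptch1* (TRINITY_DN119522_c2_g2) at 7.27 and 7.15 CPM in AOs and 18.9 and 20.8 CPM in EPs, *ptch1* (TRINITY_DN101463_c0_g1) and *ptch1* (TRINITY_DN98566_c0_g2), with log2 fold changes of -1.46 (SE 0.10), -1.21 (SE 0.16) and -1.62 (SE 0.15). Ligand and receptor both lay below EPs, and their NM values lay lower still, *shha* at 4.23 and 4.24 CPM in NMs and the first *ptch1* gene at 3.32 and 3.31 CPM in NMs. *inhba* (TRINITY_DN100683_c1_g1), an activin subunit, was at 6.81 and 6.42 CPM in AOs and 47.04 and 51.3 CPM in EPs, with a log2 fold change of -2.89 (SE 0.14). Adjusted p-values ran from 2.0e-07 to 2.5e-04 in the edgeR quasi-likelihood test (Benjamini-Hochberg).

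**Figure D4:**
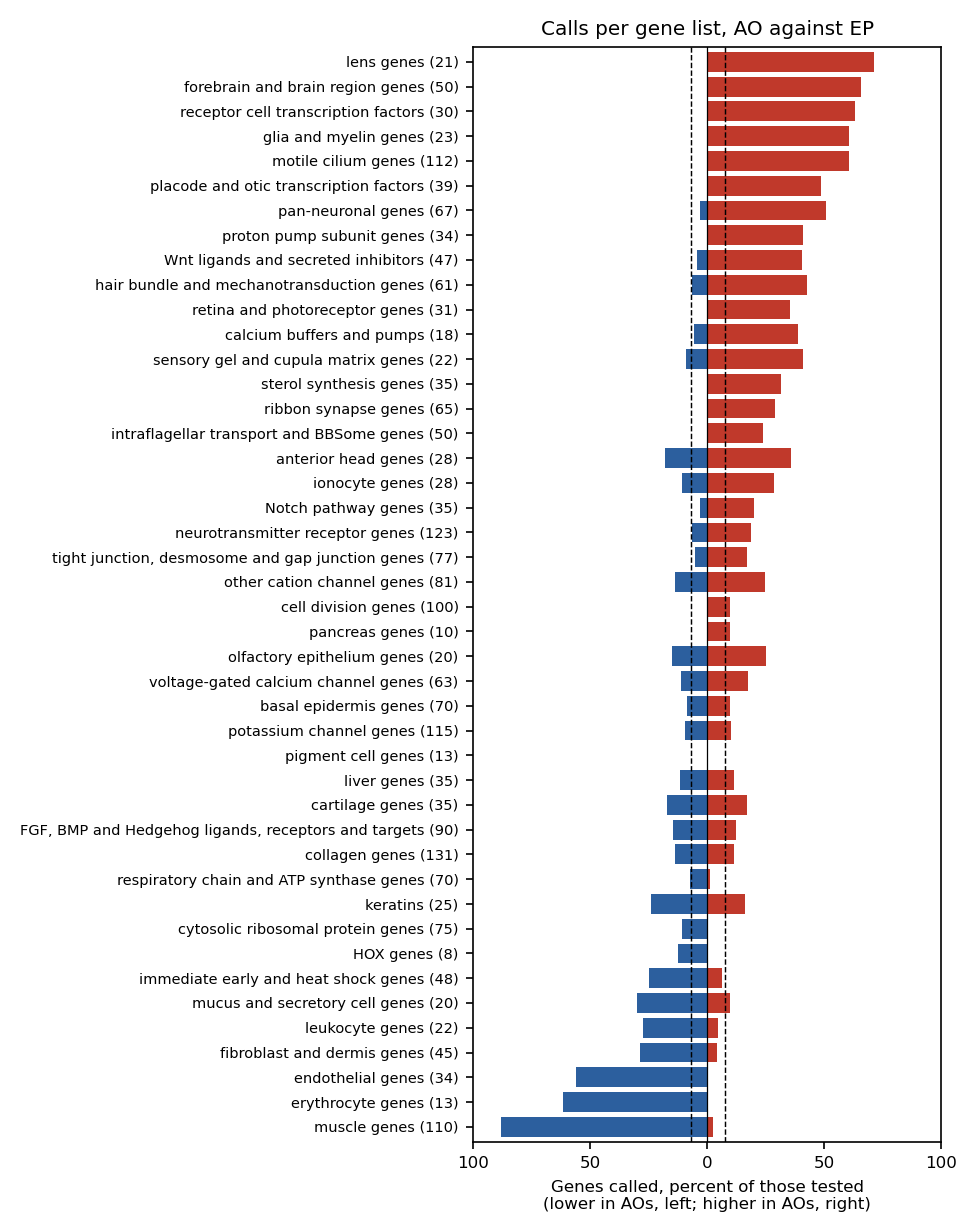
Share of the genes tested of each list that were called higher (red, to the right) or lower (blue, to the left) in AOs than in EPs, in percent, with the number tested in parentheses. Dashed lines mark the shares over all genes, 7.46% higher and 6.81% lower. Lens, glia, brain, receptor cell transcription factor and axoneme lists reach farthest to the right, and muscle, blood cell and endothelium lists farthest to the left.

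Of 67 neuron genes tested 34 were higher and 2 lower in AOs, beside 7.46% and 6.81% of all genes, with a median log2 fold change of 1.14. Between NMs and EPs 2 were higher and 23 lower, beside 4.06% and 9.19% of all genes, at a median of -1.08. Between AOs and NMs 49 were higher in AOs, beside 5.2% of all genes, at a median of 2.11. *scg2* (TRINITY_DN112311_c0_g1), a granin of secretory vesicles, was at 20.3 and 20.7 CPM in AOs, 4.85 and 4.17 CPM in EPs and 1.82 and 1.38 CPM in NMs, a log2 fold change of 2.19 (SE 0.11) between AOs and EPs. *elavl4* (TRINITY_DN109668_c3_g2), an RNA-binding protein of neurons, was at 11.8 and 10.2 CPM in AOs, 3.88 and 3.97 CPM in EPs and 0.202 and 0.353 CPM in NMs, with a log2 fold change of 1.504 (SE 0.13). *snap25* (TRINITY_DN99386_c3_g2), a SNARE protein of synaptic release, was at 28.8 and 28.7 CPM in AOs, 8.23 and 7.58 CPM in EPs and 4.34 and 5.23 CPM in NMs, and had a log2 fold change of 1.87 (SE 0.12). In all 3, AOs were highest and NMs lowest, without overlap. *chga* (TRINITY_DN104211_c1_g1), another granin, ran differently, at 40.6 and 38.04 CPM in AOs, 7.27 and 7.73 CPM in EPs and 23.2 and 25.3 CPM in NMs, so that NMs lay between AOs and EPs, and its log2 fold change between AOs and EPs was 2.39 (SE 0.086). The intermediate filament gene of peripheral neurons, *prph* (TRINITY_DN96774_c1_g5), was lower in AOs than in EPs, at 5.69 and 5.20 CPM in AOs and 14.8 and 15.6 CPM in EPs, a log2 fold change of -1.48 (SE 0.12). The adjusted p-values between AOs and EPs were 2.2e-08 to 1.3e-05 (edgeR quasi-likelihood test, Benjamini-Hochberg). Electroreceptor cells, nerve and brain can all make these proteins, and the part of each in these levels was not tested.

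Of 50 brain genes tested 33 were higher in AOs than in EPs, beside 7.46% of all genes. The other 17 did not pass the test, and the median log2 fold change was 1.91. The 4 libraries alone gave 18. Between NMs and EPs 4 were higher and 5 lower, beside 4.06% and 9.19% of all genes, at a median of -0.68. Against NMs 32 were higher in AOs, beside 5.2% of all genes, at a median log2 fold change of 2.58. *gad1* (TRINITY_DN118077_c5_g1), the enzyme that makes GABA, was at 15.3 and 16.99 CPM in AOs, 1.24 and 1.22 CPM in EPs and 1.02 and 1.51 CPM in NMs, a log2 fold change of 3.71 (SE 0.17) between AOs and EPs. *slc17a6* (TRINITY_DN115336_c3_g2), a vesicular glutamate transporter of central and sensory neurons, was at 23.9 and 20.9 CPM in AOs, 4.33 and 4.61 CPM in EPs and 2.68 and 4.05 CPM in NMs, with a log2 fold change of 2.32 (SE 0.17). *tbr1* (TRINITY_DN113837_c0_g1), a forebrain factor, was at 1.91 and 1.57 CPM in AOs, 0.145 and 0.211 CPM in EPs and 0.112 and 0.122 CPM in NMs, and had a log2 fold change of 3.02 (SE 0.32). NMs lay near or below EPs in these 3. The forebrain factors *emx1* and *six3* were higher in both organs than in EPs: *emx1* (TRINITY_DN101106_c3_g3) was at 52.8 and 54.5 CPM in AOs, 1.27 and 1.37 CPM in EPs and 40.5 and 38.5 CPM in NMs. *six3* (TRINITY_DN113633_c1_g3) was at 20.5 and 20.8 CPM in AOs, 0.720 and 0.281 CPM in EPs and 22.5 and 20.1 CPM in NMs. Their log2 fold changes between AOs and EPs were 5.29 (SE 0.14) and 5.40 (SE 0.21). Adjusted p-values were 2.2e-09 to 4.8e-05 (edgeR quasi-likelihood test, Benjamini-Hochberg). Receptors for transmitters were higher in 23 and lower in 8 of 123 genes tested, with 13 higher without AO replicate 2, 15 without EP replicate 1, 15 without EP replicate 2, 15 with DESeq2 and 9 in the 4 libraries alone.

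Of 23 myelin and glia genes tested 14 were higher in AOs and 14 in NMs than in EPs, beside 7.46% and 4.06% of all genes. The other 9 did not pass the test between AOs and EPs, and the median log2 fold change was 1.85. *slc1a3* (TRINITY_DN108125_c1_g2), a glutamate transporter of glia, was at 193 and 188 CPM in AOs, 26.7 and 25.98 CPM in EPs and 135 and 145 CPM in NMs, a log2 fold change of 2.85 (SE 0.073) between AOs and EPs. *mbp* (TRINITY_DN113309_c3_g1) and *mpz* (TRINITY_DN100959_c2_g2), the myelin proteins MBP and P0, were at 152 and 153 CPM in AOs, 40.3 and 44.3 CPM in EPs and 334 and 326 CPM in NMs and at 207 and 216 CPM in AOs, 32.5 and 45.6 CPM in EPs and 428 and 447 CPM in NMs, respectively. Their log2 fold changes between AOs and EPs were 1.85 (SE 0.078) and 2.43 (SE 0.17). NMs held most of both, and the AO minus NM log2 fold changes of -1.11 and -1.05 passed the test. *gldn* (TRINITY_DN111079_c1_g1), which gathers channels at nodes of myelinated axons, was at 46.04 and 43.5 CPM in AOs, 6.24 and 6.26 CPM in EPs and 61.7 and 58.95 CPM in NMs, with a log2 fold change of 2.84 (SE 0.10). Adjusted p-values of these genes between AOs and EPs were 2.0e-09 to 2.3e-06 in the edgeR quasi-likelihood test (Benjamini-Hochberg).

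Crystallins of the lens made up the 5 largest increases among named genes with a mean of at least 5 CPM. Of 21 lens genes tested 15 were higher in AOs than in EPs, the other 6 did not pass the test, and the median log2 fold change was 4.59. *gm2* (TRINITY_DN108250_c1_g3), a gamma-crystallin, was at 209 and 195 CPM in AOs, 1.65 and 3.45 CPM in EPs and 4.01 and 4.89 CPM in NMs, a log2 fold change of 6.25 (SE 0.30) between AOs and EPs. *crybb1* (TRINITY_DN107984_c1_g2), a beta-crystallin, was at 22.1 and 23.7 CPM in AOs and 0.180 and 0.164 CPM in EPs, and its copies *crybb1* (TRINITY_DN107984_c1_g1) and *crybb1* (TRINITY_DN107984_c1_g5) at 46.5 and 43.9 CPM in AOs and 0.840 and 0.129 CPM in EPs and at 17.6 and 15.7 CPM in AOs and 1.83 and 2.06 CPM in EPs. Their log2 fold changes were 7.25 (SE 0.23), 6.53 (SE 0.34) and 3.07 (SE 0.25). *cryaa* (TRINITY_DN86225_c1_g1), alpha A-crystallin, was at 4.01 and 4.53 CPM in AOs and 0.108 and 0.293 CPM in EPs and had no count in NMs, with a log2 fold change of 4.29 (SE 0.34) between AOs and EPs. Both AO libraries, which came from 1 pool, carried these genes alike, and EPs and untreated NMs were at or near the bottom of the range. The lens markers did not follow the organ across the series. After neomycin they summed to 17.5 and 20.5 CPM in AOs at 12 h and 105 and 97.0 CPM at 24 h. In NMs they summed to 27.3 and 23.3 CPM at 12 h and 10175 and 9004 CPM at 24 h. The source of the lens signal was not tested. Photoreceptor and pigment epithelium genes were higher in 11 of 31 cases, but in 7, 7, 5 and 6 without AO replicate 1, AO replicate 2, EP replicate 1 and EP replicate 2, and in 6 with DESeq2 and 6 in the 4 libraries alone. The cone opsin *opn1lw1* (TRINITY_DN89010_c3_g1) was at 5.03 and 6.06 CPM in AOs, 0.0964 and 0.176 CPM in EPs and 8.42 and 10.8 CPM in NMs and cone transducin *gnat2* (TRINITY_DN107334_c1_g3) at 3.54 and 3.54 CPM in AOs, 0.349 and 0.164 CPM in EPs and 4.32 and 3.82 CPM in NMs. Log2 fold changes between AOs and EPs were 5.22 (SE 0.43) and 4.03 (SE 0.32), and NMs matched or exceeded AOs in these 2 genes, unlike in the crystallins. Over the 31 genes the AO minus NM log2 fold change had a median of -0.015. Of them 1 was higher and 0 lower in AOs than in NMs, beside 5.2% and 0.828% of all genes. The higher one, a retinoid isomerohydrolase gene, was at 3.22 and 3.05 CPM in AOs and 1.07 and 1.08 CPM in NMs. The adjusted p-values of the crystallins, the opsin and transducin between AOs and EPs ran from 9.0e-09 to 1.2e-05 (edgeR quasi-likelihood test, Benjamini-Hochberg).

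Olfactory genes were few and mixed, 5 higher and 3 lower of 20 tested (29 in the table), and 3 were higher without AO replicate 1, 3 without EP replicate 1, 3 with DESeq2 and 3 in the 4 libraries alone. Of all genes 7.46% were higher and 6.81% lower in AOs than in EPs. The defining marker *omp* (TRINITY_DN112380_c3_g2), olfactory marker protein, was at 20.3 and 21.9 CPM in AOs, 0.937 and 0.141 CPM in EPs and 0.805 and 2.03 CPM in NMs, a log2 fold change of 5.24 (SE 0.43) between AOs and EPs. The pheromone receptor *vmn2r26* (TRINITY_DN94285_c0_g1) had 1.15 and 1.44 CPM in AOs and no count in EPs or NMs, at least 6.33-fold higher in AOs than in EPs against a floor of 3 counts over both libraries. These 2 genes were thus found almost only in AOs among the untreated groups, but other genes named *vmn2r26* were also present in EPs. *vmn2r26* (TRINITY_DN114414_c2_g1) was at 8.36 and 6.10 CPM in AOs and 3.41 and 4.05 CPM in EPs. *vmn2r26* (TRINITY_DN103182_c2_g1) was at 1.18 and 1.35 CPM in AOs and 1.42 and 2.40 CPM in EPs, and neither was called. A further gene of this name was at 6.42 and 5.69 CPM in AOs, 1.89 and 2.97 CPM in EPs and 4.55 and 4.67 CPM in NMs. It was called higher in AOs than in EPs (adjusted p = 0.006449, edgeR quasi-likelihood, Benjamini-Hochberg). The factor *ebf1* (TRINITY_DN100608_c0_g1), which olfactory neurons share with other neurons and mesenchyme, was lower in AOs, at 14.3 and 11.3 CPM in AOs and 34.6 and 27.4 CPM in EPs, a log2 fold change of -1.28 (SE 0.16). Adjusted p-values of the other called genes were 7.1e-06 to 3.5e-04 (edgeR quasi-likelihood test, Benjamini-Hochberg). Liver markers were divided in AOs against EPs, 4 higher and 4 lower of 35, beside 7.46% and 6.81% of all genes. Between NMs and EPs 27 were higher in NMs, beside 4.06% of all genes. Of 13 pigment cell genes 0 were called in the edgeR quasi-likelihood test, 4 were higher and 1 lower at an unadjusted p under 0.05, and the exact test and DESeq2 also called 0.

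Keratins were called in both directions, also within 1 name or assembly component. Of 25 keratins tested 4 were higher and 6 lower, beside 7.46% and 6.81% of all genes, with a median log2 fold change of -0.16. *krt19* (TRINITY_DN90409_c4_g2), a keratin of simple epithelia, was at 1849.6 and 1727 CPM in AOs and 425 and 375 CPM in EPs, a log2 fold change of 2.16 (SE 0.14). *krt15* (TRINITY_DN90409_c4_g1), from the same assembly component, was at 9.995 and 9.21 CPM in AOs and 434 and 434 CPM in EPs, a log2 fold change of -5.50 (SE 0.21). The former lay far above EPs and the latter far below, each in both libraries. Likewise *krt18* (TRINITY_DN111078_c1_g2) was at 294 and 261 CPM in AOs and 43.9 and 39.4 CPM in EPs, with a log2 fold change of 2.73 (SE 0.12), and *krt18* (TRINITY_DN96713_c0_g3), of the same name, at 19.97 and 18.5 CPM in AOs and 212 and 249 CPM in EPs, with one of -3.58 (SE 0.15). *krt13* (TRINITY_DN99727_c0_g2), a keratin of stratified mucosa, was at 818 and 824 CPM in AOs and 2369 and 2282 CPM in EPs and *krt42* (TRINITY_DN92730_c3_g1) at 1288 and 1157 CPM in AOs and 3276 and 2823 CPM in EPs, log2 fold changes of -1.502 (SE 0.067) and -1.32 (SE 0.11). *krt13* (TRINITY_DN110384_c5_g1), of the same name, was at 3894 and 4095 CPM in AOs and 4822 and 3513 CPM in EPs and was not called. A further *krt13* gene of low level was called higher, by a log2 fold change of 1.90 (adjusted p = 0.00125, edgeR quasi-likelihood, Benjamini-Hochberg). Adjusted p-values of the other called genes were 3.0e-08 to 9.0e-06 in the edgeR quasi-likelihood test (Benjamini-Hochberg). The first pair was at 2235 and 1838 CPM in NMs and 9.64 and 17.1 CPM in NMs, beside AOs. The lower *krt18* gene was at 63.4 and 74.8 CPM in NMs, between AOs and EPs, and its AO minus NM log2 fold change of -1.85 passed the test (adjusted p = 2.4e-05, edgeR quasi-likelihood, Benjamini-Hochberg). Of all keratins 2 were higher and 1 lower in AOs than in NMs.

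Of 77 junction genes tested 13 were higher and 4 lower in AOs, beside 7.46% and 6.81% of all genes. The other 60 did not pass the test, and the median log2 fold change was 0.07. Claudins seal the gaps between epithelial cells. *cldn3* (TRINITY_DN115821_c2_g3) was at 24.9 and 27.7 CPM in AOs and 1.56 and 1.36 CPM in EPs, a log2 fold change of 4.19 (SE 0.16). *cldn22* (TRINITY_DN85847_c1_g1) was at 12.2 and 12.8 CPM in AOs and 0.673 and 0.246 CPM in EPs, a log2 fold change of 4.67 (SE 0.30). *cldn7* (TRINITY_DN103724_c2_g2) was at 9.96 and 11.2 CPM in AOs and 1.36 and 1.29 CPM in EPs, a log2 fold change of 2.95 (SE 0.18). These 3 claudins, taken from those called higher, were above EPs by 7-fold or more in both AO libraries. The gap junction gene *gja1* (TRINITY_DN95987_c2_g2) was lower, at 26.2 and 27.2 CPM in AOs and 74.7 and 72.4 CPM in EPs, a log2 fold change of -1.46 (SE 0.10). Of 20 mucous and goblet cell genes 2 were higher and 6 lower, beside 7.46% and 6.81% of all genes, and 12 were not called. *muc5ac* (TRINITY_DN111890_c1_g1), a gel-forming mucin, was at 14.3 and 12.3 CPM in AOs and 86.6 and 81.2 CPM in EPs, with a log2 fold change of -2.65 (SE 0.087), and *agr2* (TRINITY_DN101291_c0_g2), which goblet cells need to fold mucins, was at 55.9 and 55.5 CPM in AOs and 607 and 621 CPM in EPs, with one of -3.46 (SE 0.071). *fcgbp* (TRINITY_DN114130_c1_g3), a mucus-binding protein, was at 8.44 and 8.22 CPM in AOs and 67.02 and 66.9 CPM in EPs and had a log2 fold change of -3.01 (SE 0.081). These 3 goblet cell genes were 5 or more times higher in either EP library than in either AO library. The other genes named *fcgbp* were not called. Among them, *fcgbp* (TRINITY_DN117901_c5_g2) was at 220 and 239 CPM in AOs and 207 and 184 CPM in EPs. *muc4* (TRINITY_DN118858_c5_g4), named for a membrane-bound mucin, was at 37.4 and 38.8 CPM in AOs and 1.59 and 1.74 CPM in EPs, a log2 fold change of 4.54 (SE 0.11), and lies in 1 assembly component with *fbn2* (TRINITY_DN118858_c5_g2), named for a fibrillin, at 38.5 and 47.2 CPM in AOs and 2.53 and 1.58 CPM in EPs. Adjusted p-values of the genes called ran from 4.3e-10 to 4.8e-05 (edgeR quasi-likelihood test, Benjamini-Hochberg).

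Genes that mark position along the body were looked at because the organs came from the head and EPs from the trunk. Only 8 of 29 HOX genes had enough counts to be tested, and 1 was called lower, beside 6.81% of all genes. It was *hoxa2* (TRINITY_DN82909_c1_g2), at 0.583 and 1.17 CPM in AOs and 3.84 and 2.98 CPM in EPs, a log2 fold change of -1.94 (SE 0.32). Of 28 head genes 10 were higher and 5 lower, and 3 lower without AO replicate 1. *pitx1* (TRINITY_DN95460_c0_g1), known from the jaw and the hind limb, was lower, at 42.5 and 41.8 CPM in AOs and 133.9 and 159 CPM in EPs, a log2 fold change of -1.80 (SE 0.16), and so was *pitx3* (TRINITY_DN88765_c0_g1), at 2.97 and 3.15 CPM in AOs and 10.8 and 10.8 CPM in EPs and -1.82 (SE 0.20). In both genes the AO libraries lay below the EP libraries without overlap. The adjusted p-values were 1.4e-05 to 8.9e-04 (edgeR quasi-likelihood test, Benjamini-Hochberg).

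Of 110 muscle genes tested 97 were lower and 3 higher, with a median log2 fold change of -6.48. *mylpf* (TRINITY_DN115890_c1_g3), a myosin light chain of fast muscle, was at 62.4 and 71.4 CPM in AOs and 10079 and 10094 CPM in EPs, a log2 fold change of -7.24 (SE 0.10). *ckm* (TRINITY_DN107292_c2_g1), muscle creatine kinase, was at 51.2 and 58.4 CPM in AOs and 4267 and 4358 CPM in EPs, with a log2 fold change of -6.30 (SE 0.13), and *casq2* (TRINITY_DN111044_c5_g1), the calcium store protein calsequestrin, at 0.235 and 0.704 CPM in AOs and 526 and 476 CPM in EPs, with one of -10.11 (SE 0.24). EP libraries exceeded AO libraries by 70-fold or more in these genes. The higher muscle genes were all named *myh16*, a myosin of jaw muscle, and *myh16* (TRINITY_DN119824_c6_g1) was at 67.5 and 64.7 CPM in AOs, 24.6 and 25.98 CPM in EPs and 56.8 and 56.9 CPM in NMs, a log2 fold change of 1.38 (SE 0.068) between AOs and EPs. Of the genes named *ttn*, the titin of the sarcomere, 3 had no count in either AO library and were at least 159.7-fold, 264-fold and 276-fold lower in AOs than in EPs by the same floor. Red blood cell genes were lower in 8 of 13 cases, among them *hbz* (TRINITY_DN106171_c1_g3), a hemoglobin, at 2443 and 2419 CPM in AOs and 8239.6 and 7865 CPM in EPs, a log2 fold change of -1.73 (SE 0.071). Endothelial genes were lower in 19 of 34 cases, 12 without AO replicate 1 and 10 without EP replicate 1. *fli1* (TRINITY_DN97272_c2_g1), a factor of vessels, was at 11.01 and 13.3 CPM in AOs and 46.9 and 42.1 CPM in EPs, with a log2 fold change of -1.87 (SE 0.10), and *vwf* (TRINITY_DN110781_c0_g2) at 3.46 and 3.40 CPM in AOs and 18.1 and 18.5 CPM in EPs, with one of -2.42 (SE 0.19). Leukocyte genes were lower in 6 and higher in 1 of 22, and lower in 3, 3 and 2 without AO replicate 1, AO replicate 2 and EP replicate 1. Adjusted p-values were 4.1e-11 to 1.3e-04 (edgeR quasi-likelihood test, Benjamini-Hochberg).

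Connective tissue genes fell on both sides. Of 131 collagen genes 15 were higher and 18 lower, which is 11.5% and 13.7% beside 7.46% and 6.81% of all genes. Of 45 other dermal genes 2 were higher and 13 lower, with a median log2 fold change of -0.56. *col10a1* (TRINITY_DN112348_c0_g1), a collagen best known from hypertrophic cartilage and bone, was at 5.16 and 5.67 CPM in AOs, 1087 and 1083 CPM in EPs and 3.69 and 3.61 CPM in NMs, a log2 fold change of -7.64 (SE 0.090) between AOs and EPs. *matn1* (TRINITY_DN91195_c1_g1), a cartilage matrix protein, was at 0.545 and 0.685 CPM in AOs and 44.3 and 40.4 CPM in EPs, with a log2 fold change of -6.03 (SE 0.34). Both were present in EPs and nearly absent from AOs and NMs. *col28a1* (TRINITY_DN119918_c7_g1), a collagen of peripheral nerve in mouse, was higher in AOs, at 89.1 and 89.9 CPM in AOs and 32.6 and 34.7 CPM in EPs, a log2 fold change of 1.41 (SE 0.070). *postn* (TRINITY_DN107721_c3_g1), periostin, was at 3486 and 2914 CPM in AOs and 1132 and 936 CPM in EPs, with a log2 fold change of 1.63 (SE 0.19), and *fbn1* (TRINITY_DN116731_c1_g1), fibrillin-1 of elastic fibres, at 14.9 and 13.3 CPM in AOs and 67.2 and 64.7 CPM in EPs, with one of -2.22 (SE 0.085). Of the basement membrane and basal cell genes 7 of 70 were higher and 6 lower, beside 7.46% and 6.81% of all genes. *frem2* (TRINITY_DN119641_c4_g1), which ties epidermis to dermis in the embryo, was at 32.6 and 32.8 CPM in AOs and 7.40 and 7.81 CPM in EPs, a log2 fold change of 2.10 (SE 0.079). *lamb3* (TRINITY_DN117945_c2_g2), a laminin chain of the epidermal basement membrane, was lower, at 5.99 and 5.52 CPM in AOs and 33.4 and 35.7 CPM in EPs, a log2 fold change of -2.59 (SE 0.12). The basal cell factor *tp63* (TRINITY_DN110993_c0_g2) was at 163 and 154 CPM in AOs and 133 and 137 CPM in EPs, and its log2 fold change of 0.23 (SE 0.092) did not pass the test. Adjusted p-values of the genes called were 3.7e-11 to 7.3e-05 in the edgeR quasi-likelihood test (Benjamini-Hochberg).

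Genes of general cell functions were counted as well. Of 100 genes of DNA replication and mitosis 10 were higher, beside 7.46% of all genes, and the other 90 did not pass the test. With DESeq2 6 were higher, and in the 4 libraries alone 5. *pcna* (TRINITY_DN113456_c3_g1), the replication clamp, was at 256 and 249.5 CPM in AOs and 172 and 191 CPM in EPs, a log2 fold change of 0.48 (SE 0.11) that fell short of the size required, and *gins4* (TRINITY_DN112821_c1_g1), of the replicative helicase, was at 31.8 and 38.6 CPM in AOs and 13.9 and 15.1 CPM in EPs, with one of 1.28 (SE 0.18). Cholesterol synthesis genes were higher in 11 of 35 cases, and the other 24 did not pass the test. *sqle* (TRINITY_DN114602_c2_g1), a rate-limiting enzyme of this pathway, was at 3.32 and 3.13 CPM in AOs and 0.288 and 0.188 CPM in EPs, a log2 fold change of 3.89 (SE 0.41), and *cyp51a1* (TRINITY_DN109489_c3_g1) at 9.20 and 9.67 CPM in AOs and 1.79 and 1.54 CPM in EPs, one of 2.47 (SE 0.19). Both genes were above EPs in both AO libraries. Stress genes were lower in 12 and higher in 3 of 48 cases, beside 6.81% and 7.46% of all genes. *hspb1* (TRINITY_DN92640_c1_g1), a small heat shock protein that muscle holds in quantity, was at 3.10 and 4.43 CPM in AOs and 121 and 133.7 CPM in EPs, with a log2 fold change of -5.08 (SE 0.17), and the immediate-early gene *fos* (TRINITY_DN108039_c0_g1) at 4.97 and 6.23 CPM in AOs and 12.00 and 13.8 CPM in EPs, with one of -1.22 (SE 0.14). Ribosomal protein genes were lower in 8 of 75 cases, beside 6.81% of all genes, with a median log2 fold change of -0.69. By the exact test 13 were lower. *rpl37* (TRINITY_DN91206_c2_g1) was at 1031 and 976 CPM in AOs, 2765 and 2204 CPM in EPs and 2263 and 1912 CPM in NMs, a log2 fold change of -1.31 (SE 0.18) between AOs and EPs, and NMs lay closer to EPs. Adjusted p-values of the genes called were 1.1e-08 to 3.3e-04 (edgeR quasi-likelihood test, Benjamini-Hochberg).

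Outside the lists, a few genes were close to all-or-none. *slc6a14* (TRINITY_DN84531_c1_g1), an amino acid transporter of mucosal epithelia, was at 0.0466 and 0.0938 CPM in AOs, 36.9 and 38.7 CPM in EPs and 0.268 and 0.0997 CPM in NMs, a log2 fold change of -9.23 (SE 0.31) between AOs and EPs. *mmp20* (TRINITY_DN101867_c2_g2), the enamel protease, was at 0.141 and 0 CPM in AOs and 17.7 and 17.4 CPM in EPs and had no count in NMs, with a log2 fold change of -8.13 (SE 0.46). *hcea* (TRINITY_DN92107_c5_g1), named for a hatching enzyme of fish eggs, was at 0 and 0.244 CPM in AOs and 29.3 and 27.4 CPM in EPs, with a log2 fold change of -7.99 (SE 0.43). EPs held each of them near or above 17 CPM and the organs almost nothing. *ctsv* (TRINITY_DN84173_c0_g2), a lysosomal protease, and *saa1* (TRINITY_DN118861_c7_g1), an acute-phase protein, had no count in either AO library and were at least 131-fold and 117-fold lower in AOs. Adjusted p-values of these 5 genes were 1.4e-08 to 2.5e-04 (edgeR quasi-likelihood test, Benjamini-Hochberg).

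Some copies of 1 name were not interchangeable. Of the 4441 names carried by 2 or more genes, 33 had genes called in both directions. Of 182 assembly components with 2 or more genes called, 10 held calls in both directions, and the rest in 1 direction only. Otoancorin, keratin 18, *kcnj11*, *krt15* with *krt19* and *cacna1c* with *cacna1d* have been given above. *col11a2* (TRINITY_DN114608_c1_g2) and *col11a2* (TRINITY_DN117400_c1_g3), both named for a fibrillar collagen of cartilage, were at 128 and 139 CPM in AOs, 53.03 and 53.4 CPM in EPs and 146 and 162 CPM in NMs and at 4.19 and 4.70 CPM in AOs, 55.2 and 63.4 CPM in EPs and 0.202 and 0.551 CPM in NMs, log2 fold changes of 1.33 (SE 0.083) and -3.74 (SE 0.19) between AOs and EPs. The first was shared by AOs and NMs, and the second was found mostly in EPs. *fbn2* (TRINITY_DN107596_c1_g1), named for the same fibrillin as the gene raised beside *muc4*, was lower, at 14.6 and 14.04 CPM in AOs and 39.2 and 36.3 CPM in EPs, with a log2 fold change of -1.39 (SE 0.080). Chosen after their values were seen, the homeodomain factors *irx3* (TRINITY_DN108486_c1_g2) and *irx1* (TRINITY_DN108486_c1_g1) of 1 component were at 118 and 158 CPM in AOs and 24.3 and 31.1 CPM in EPs and at 0.555 and 0.797 CPM in AOs and 8.12 and 6.11 CPM in EPs, log2 fold changes of 2.32 (SE 0.19) and -3.35 (SE 0.30). Adjusted p-values were 2.2e-07 to 1.3e-05 (edgeR quasi-likelihood test, Benjamini-Hochberg). Reads that near-identical copies share could be assigned to either, so the level of a single copy is less certain than the sum over its copies.

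**Figure D5:**
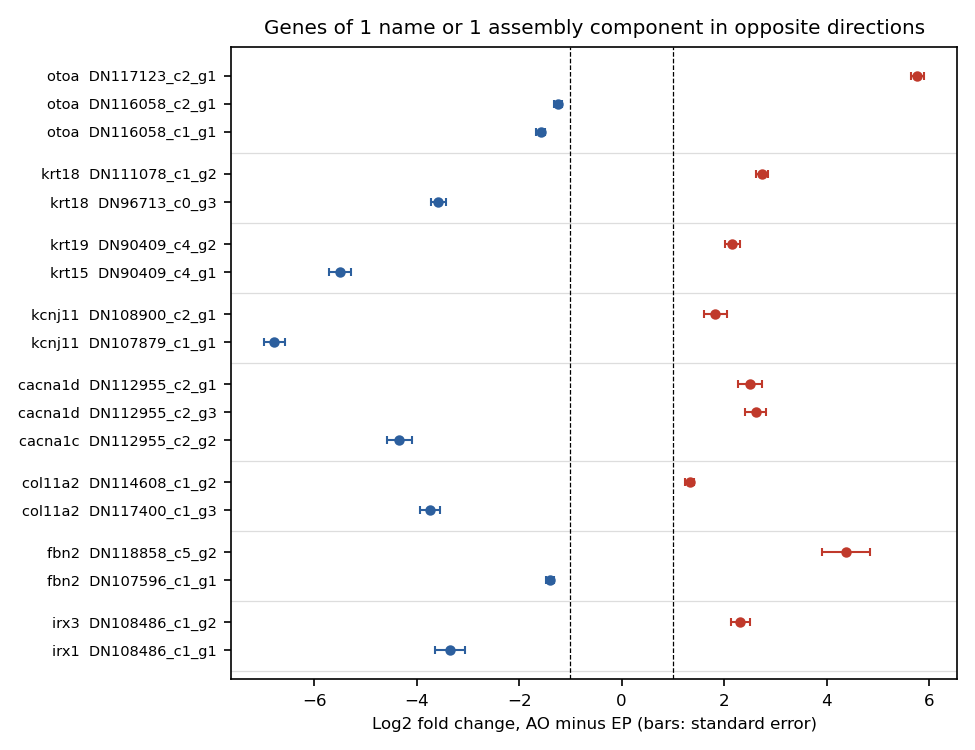
Log2 fold change between untreated AOs and EPs (points) with its standard error (bars) for genes that share a name or an assembly component and were called in opposite directions. Each row is 1 gene with the end of its assembly identifier, red for higher and blue for lower in AOs, and the dashed lines mark 1 and -1. In each of the 8 sets genes lie on both sides, from 5.77 to -1.58 for *otoa* and from 2.16 to -5.50 for *krt19* and *krt15*.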

How the data were processed

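The labels map the 14 libraries to 7 groups of 2, of which untreated AO and EP are compared. The authors trimmed reads (Trimmomatic 0.38, CASAVA 1.8.2 base calls), assembled all libraries together with Trinity 2.6.6, named genes by Swiss-Prot and sterlet proteins, and deposited RSEM expected counts per gene, with no scaling. The RSEM version is not given in the sources used here, nor whether counting used strand, so reads of overlapping antisense genes cannot be told apart. The expected counts were rounded and fitted with edgeR 4.0.16 (R 4.3.3): TMM scaling, filterByExpr, 7 group means over all 14 libraries (common biological coefficient of variation 0.121) and the quasi-likelihood test. The design and thresholds follow the study, except that its exact test on pairs of groups became an alternative, because 2 libraries a group give little estimate of spread. Levels come from this fit, and scripts were tested on simulated data. The SE was calculated back from the test, as the size of the log2 fold change divided by the square root of the F statistic. DESeq2 1.42.0 was an alternative.

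The 44 gene lists match gene symbols, and they, the members and the comparison were chosen with earlier results of these data known. A total of 14 symbols that matched a list by spelling alone were left out. Named genes are the 15 largest and 15 smallest log2 fold changes called with a mean of at least 5 CPM, list members marked as key, up to 4 called members per list and direction by smallest adjusted p, and genes at 0 in 1 group. List members that missed the test may be named to give their value. Genes outside this rule are marked in the text, and some genes are not reported here.

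Replicate numbers paired the libraries only weakly: deviations from the group means of same-numbered AO and EP libraries correlated at r = 0.136, and over all 21 pairs of groups at 0.125 to 0.232 (median 0.194). All exceeded 0.1, so the replicate block was fitted as an alternative. The labels name no batch.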

Additional observations from a re-analysis of the deposited data

How the results depend on the processing

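The calls between untreated AOs and EPs kept their direction under every alternative run: 0 of the 3135 calls changed sign. Scaling by RLE gave 1481 higher and 1598 lower, no filter 1638 and 1499, a filter at 1 CPM in 2 libraries 1640 and 1504, the exact test 1519 and 1784, DESeq2 1164 and 1452, an FDR under 0.05 2051 and 1718, and the 4 libraries alone 955 and 1375, where 2 libraries a group leave fewer degrees of freedom. The replicate block gave 1719 higher and 1573 lower, of which 3113 were shared with the fit without the block, and changed no call of a gene named in the text. Without 1 library the counts ranged from 1233 to 1325 higher and from 1260 to 1297 lower. Of the 172 called genes named in the text, 170 stayed called throughout, and *cdh23* (TRINITY_DN74883_c0_g1) and *hoxa2* (TRINITY_DN82909_c1_g2) were lost in the fit of the 4 libraries alone, with log2 fold changes of 3.46 and -2.004. Of 49 list counts of 5 or more, 12 moved by over 1.5 times in that fit, 8 with DESeq2, 3 with an FDR under 0.05, 1 by the exact test and 7 to 9 without 1 library, and 0 with RLE, the other filters or the block. Genes near or below 1 CPM rest on about 10 reads a library, and their fold changes are the least certain.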
